A study of Bos taurus with 27 samples.

Results

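Actin, myosin and their linker proteins form the actin part of the cytoskeleton of animal cells. Beta-actin and gamma-actin polymerise into filaments, nonmuscle myosin II pulls on them, alpha-actinin and filamin crosslink them, and talin and vinculin couple them to integrins at sites of adhesion. In the gut wall the same proteins line the brush border and junctions of the epithelium, and several of them are also abundant in the smooth muscle beneath it.

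The genes described here were ACTG1 (gamma-actin), ACTB (beta-actin), MYH9 and MYH10 (heavy chains of nonmuscle myosin IIA and IIB), FLNA (filamin A), TLN1 (talin), VCL (vinculin), ACTN1 and ACTN4 (alpha-actinins), 9 of 24616 genes in the count table. They were taken by name, each with a single Ensembl identifier. They were selected on measured values, since ACTG1 tended to be higher in calves first fed colostrum at 12 h than in the other treatments, so values that set TRT12 against another treatment are given below as a description. No p-value of a single gene is printed for them, and counts of called genes there support nothing. All 9 genes passed the filter on low counts, as did 13943 genes in all.

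RNA was sequenced from the colon of 27 male Holstein calves at 51 h of age. The calves were tube-fed pooled, pasteurised colostrum as their first meal, in TRT0 at birth (0 h), in TRT6 after 6 h and in TRT12 after 12 h, and all received milk replacer afterwards. There were 9 calves per treatment, of which 4 had a primiparous dam (heifer, H) and 5 a multiparous dam (cow, C). All calves were sampled at the same age, so the time from the first meal to sampling differed with treatment and the 2 cannot be told apart, and no calf without colostrum was sampled.

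Whole colon tissue was used, so a level in these libraries joins the amount of RNA per cell with the share of each cell type, and these cannot be told apart. Smooth muscle, epithelial and fibroblast markers were all detected in every calf. The summed level of 11 smooth muscle markers ranged from 8062 to 16386 CPM (counts scaled to a common total per calf), that of 8 epithelial markers from 2806 to 4950 CPM, and that of 7 fibroblast markers from 7211 to 18321 CPM. Gene counts summed to between 1163791 and 4202593 per calf (median 2215402). Libraries came from 3 lanes, of which lane A held 11 calves and none of TRT0_C, lane B held 11, and lane C held 5. The 351 pairs of calves all differed by more than sampling noise, with chi-square values of at least 2.99 per degree of freedom.

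All 9 genes were well measured. ACTG1 (ENSBTAG00000006189) had a mean of 1385 ± 218 CPM (SD, n = 27), resting on 1558 to 4951 reads in a calf. At that depth counting error alone was 1.93% of the level, against a spread between calves of 15.7%. ACTB (ENSBTAG00000026199) averaged 3072 ± 562 CPM and MYH9 (ENSBTAG00000010402) 1195 ± 162 CPM. MYH10 (ENSBTAG00000021151), the lowest in counts, averaged 128 ± 20.3 CPM on at most 503 reads in a calf, with a counting error of 6.25% against a spread of 15.9%. Among the linkers, FLNA (ENSBTAG00000011190) averaged 3459 ± 777 CPM, TLN1 (ENSBTAG00000025868) 705 ± 104 CPM, VCL (ENSBTAG00000021879) 602 ± 84.9 CPM, ACTN1 (ENSBTAG00000018255) 367 ± 63.3 CPM and ACTN4 (ENSBTAG00000011215) 369 ± 68.1 CPM. The spread between calves was widest for FLNA, at 22.5%, and narrowest for MYH9, at 13.6%. CPM was not divided by transcript length, so levels are compared between calves and not between genes. ACTB and ACTG1 code for near-identical proteins and have processed copies. Reads that fitted several genes were left out of the counts, so the division of reads between ACTB and ACTG1 is uncertain, and how many were lost was not tested.

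**Figure D1:**
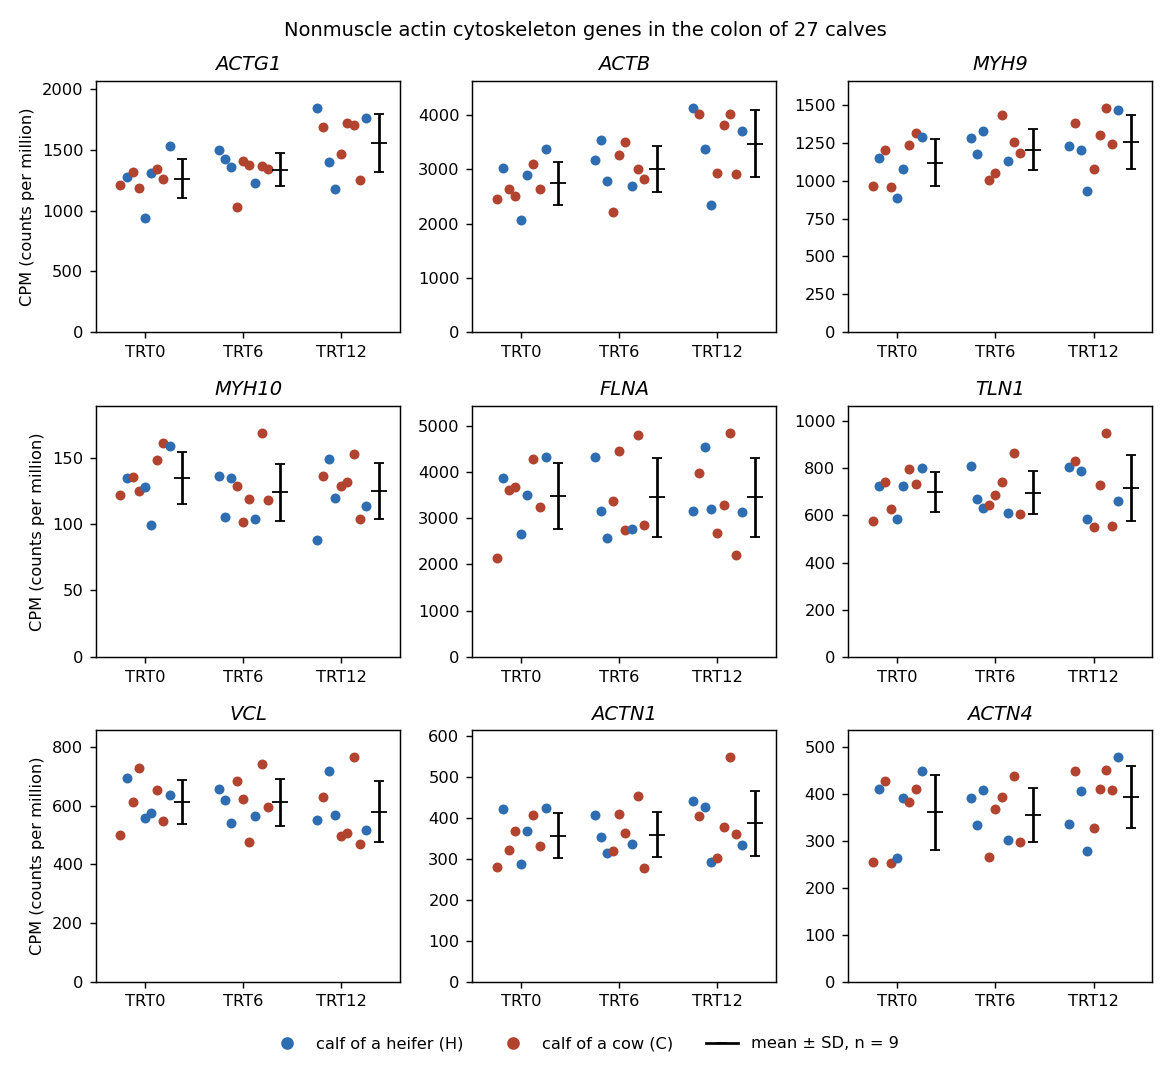
CPM (vertical axis, from 0) of each of the 9 genes in each calf by treatment, with calves of heifers in blue, calves of cows in red and black bars for the mean ± SD of 9 calves. The TRT12 calves of ACTG1 sit between 1178 and 1844 CPM and overlap the TRT0 calves, which sit between 936 and 1535 CPM. The 3 groups overlap for each gene, and overlap was not counted over all genes tested.

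ACTG1 and ACTB, the filament subunits, did not differ between TRT6 and TRT0 by a margin that passed the test. The level of ACTG1 ranged in TRT0 from 936 CPM through a median of 1272 to 1535 CPM, and in TRT6 from 1026 through 1366 to 1500 CPM. No TRT6 calf exceeded the highest TRT0 calf of ACTG1, and 7 of 9 exceeded the TRT0 median. For ACTB, 2 of 9 TRT6 calves exceeded the highest TRT0 calf and 8 exceeded the TRT0 median. The fitted log2 fold change of ACTG1 for TRT6 vs. TRT0 was 0.12 (SE 0.10, 95% interval −0.09 to 0.32). ACTB ranged from 2067 through 2645 to 3378 CPM in TRT0 and from 2218 through 3008 to 3548 CPM in TRT6, with a log2 fold change of 0.16 (SE 0.11, −0.06 to 0.39). Neither passed the test (edgeR quasi-likelihood, adjusted p = 0.99998 for both), and the intervals include both no difference and a fold change beyond 1.2.

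The motor genes did not pass the test either. MYH9, whose product forms contractile bundles at the cortex, ranged from 884 through 1151 to 1318 CPM in TRT0 and from 1007 through 1185 to 1437 CPM in TRT6, a log2 fold change of 0.14 (SE 0.09, adjusted p = 0.99998, edgeR). MYH10, whose product stays bound to filaments for longer, ranged from 99.2 through 134 to 161 CPM in TRT0 and from 101 through 119 to 169 CPM in TRT6, a log2 fold change of −0.09 (SE 0.10, adjusted p = 0.99998). The TRT0 and TRT6 calves overlapped for both genes.

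The crosslinkers and adhesion proteins did not pass the test. For TRT6 vs. TRT0 the log2 fold changes were 0.03 for FLNA (SE 0.15), 0.02 for TLN1 (SE 0.10), 0.03 for VCL (SE 0.11), 0.04 for ACTN1 (SE 0.11) and 0.02 for ACTN4 (SE 0.12). The adjusted p was 0.99998 for each (edgeR). The direction of FLNA, TLN1, VCL and ACTN4 turned when library totals replaced TMM factors, so no direction is read from them. In all, 0 of the 9 genes were called in TRT6 vs. TRT0, where called means an adjusted p of 0.10 or less and a fold change of at least 1.2, and 0 of 13943 genes tested were called (0%). At an unadjusted p below 0.05 there were 0 of the 9 genes and 438 of all genes (3.14%), and DESeq2 called 0 genes. The lowest p among the 9 was that of MYH9 (unadjusted p = 0.135, edgeR).

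The level of ACTG1 in TRT12, which led to the choice of the list, is a description. It ranged in TRT12 from 1178 through a median of 1685 to 1844 CPM, and the means rose from 1262 ± 159 CPM in TRT0 through 1336 ± 137 CPM in TRT6 to 1557 ± 239 CPM in TRT12 (SD, n = 9 each). Of the 9 TRT12 calves, 5 exceeded the highest TRT0 calf and 1 TRT0 calf fell under the lowest TRT12 calf. The means of TRT0 and TRT6 differed by less than the SD of each. The TRT12 mean lay above TRT6 by less than the SD of TRT12 itself.

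The single calves show how far the treatments overlapped. In TRT0 the 4 H calves had 1272, 936, 1308 and 1535 CPM, and the 5 C calves 1210, 1314, 1182, 1341 and 1260 CPM. In TRT6 the 4 H calves had 1500, 1424, 1361 and 1228 CPM, and the 5 C calves 1026, 1405, 1378, 1366 and 1339 CPM. In TRT12 the 4 H calves had 1844, 1401, 1178 and 1762 CPM, and the 5 C calves 1685, 1466, 1718, 1706 and 1254 CPM. Of the TRT12 calves, 4, from both parities, had less ACTG1 than the highest TRT0 calf, and the other 5 had more.

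The fitted log2 fold change of ACTG1 for TRT12 vs. TRT0 was 0.32 (SE 0.10), a fold of 1.25, and for TRT12 vs. TRT6 it was 0.21 (SE 0.10). ACTB followed it closely. ACTB rose in mean from 2744 ± 394 CPM in TRT0 through 3002 ± 425 CPM in TRT6 to 3472 ± 620 CPM in TRT12, with a log2 fold change of 0.36 (SE 0.11) for TRT12 vs. TRT0, and 6 of 9 TRT12 calves exceeded the highest TRT0 calf. MYH9 followed at 0.19 (SE 0.09), ACTN4 at 0.16 (SE 0.12) and ACTN1 at 0.13 (SE 0.11). TLN1 stood at 0.05 (SE 0.10) and FLNA at −0.01 (SE 0.15), while VCL stood at −0.07 (SE 0.11) and MYH10 at −0.08 (SE 0.10). The median over the 9 genes was 0.13, beside a median of 0.00 over all genes tested, and 6 were higher and 3 lower. edgeR called 0 of the 9 genes and 0% of all genes, although 1307 genes (9.37%) had an unadjusted p below 0.05, and DESeq2 called 51 genes (0.366%), of which 2 were among the 9, ACTG1 and ACTB. The rule used this contrast, so nothing is read from these counts.

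**Figure D2:**
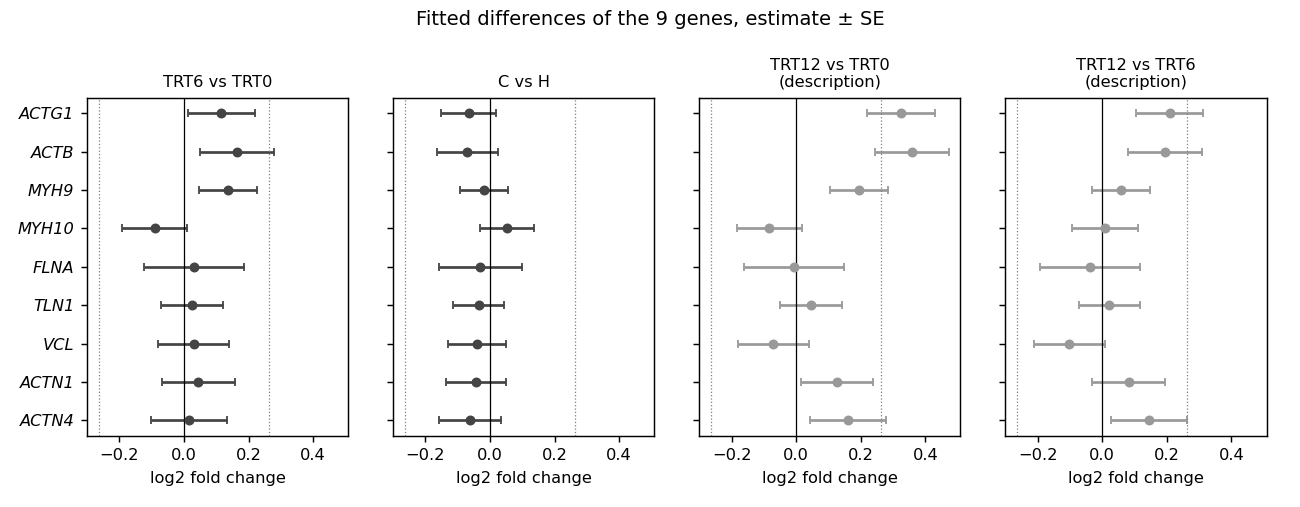
Fitted log2 fold change (horizontal axis, points) with its standard error (bars) for each of the 9 genes in the 4 overall contrasts, with dotted lines at a fold change of 1.2 in either direction. The panels of TRT6 vs. TRT0 and C vs. H hold the tested contrasts and stay within the dotted lines for every point, while ACTG1 (0.32) and ACTB (0.36) lie beyond the line in TRT12 vs. TRT0, a contrast given as a description because it chose the genes.

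Lane values stood beside these levels. For TRT12 vs. TRT0 the log2 fold change of ACTG1 was 0.30 with lane A calves alone and 0.32 with lane B calves alone, and ACTB gave 0.23 and 0.41. MYH9 gave 0.18 and 0.12, ACTN4 0.01 and 0.08, and ACTN1 0.04 and 0.14. The value of ACTN4 with all calves (0.16) lay above those of both lanes, and with lane as a term in that fit it was 0.22. MYH10 (0.08) and TLN1 (−0.07) in lane A, FLNA (0.07) in lane B and VCL (0.03 in both lanes) had the opposite sign to their value with all calves. Lane A held 2 TRT0 calves, and lane C held 5 calves in all, too few for a value. Lane C also held both of the highest TRT12 calves of ACTG1, at 1844 and 1762 CPM. MYH10 averaged 117 ± 16.5 CPM in lane A (SD, n = 11) and 145 ± 12.9 CPM in lane B (n = 11), and ACTN4 averaged 343 ± 62.9 and 416 ± 21.3 CPM. The summed fibroblast markers had medians of 9531 CPM in lane A and 12943 CPM in lane B. With lane as a term in the fit of all calves, TRT12 vs. TRT0 gave 0.35 for ACTG1, 0.37 for ACTB, 0.22 for MYH9 and 0.14 for ACTN1. That fit gave 0.07 for TLN1, 0.03 for FLNA, −0.05 for MYH10 and −0.07 for VCL. The part of the lane itself in these levels was not tested.

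Markers of other cell types were set beside these levels. The epithelial sum had medians of 3492, 3553 and 3744 CPM in TRT0, TRT6 and TRT12, with ranges of 2867 to 3819, 2806 to 4287 and 2895 to 4950 CPM. The smooth muscle sum had medians of 12950, 11314 and 10969 CPM, with ranges of 8062 to 15231, 8307 to 16172 and 8786 to 16386 CPM. All 8 epithelial markers were fitted above 0 in TRT12 vs. TRT0 (median 0.22) and 9 of 11 smooth muscle markers below 0 (median −0.06), with 0 called in both. Their part in the level of ACTG1 was not tested.

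Calves of cows and of heifers were compared to ask whether dam parity goes with the level of these genes, a contrast that played no part in their choice. ACTG1 averaged 1377 ± 199 CPM in the 15 C calves and 1396 ± 248 CPM in the 12 H calves. The fitted log2 fold change for C vs. H was −0.07 (SE 0.09, 95% interval −0.23 to 0.10). ACTB averaged 3056 ± 564 CPM in C and 3093 ± 585 CPM in H, with a fitted value of −0.07 (SE 0.09). MYH10 averaged 132 ± 19.2 and 123 ± 21.3 CPM, with a fitted value of 0.05 (SE 0.08). Over the 9 genes the log2 fold changes ran from −0.07 for ACTB to 0.05 for MYH10, 8 below 0 and 1 above, and 5 of them (MYH9, FLNA, TLN1, VCL and ACTN1) turned sign with library totals in place of TMM factors. That scaling moved the median of all genes to 0.05. None of the 9 genes was called (edgeR, adjusted p = 0.9997 for each), as was none of all genes (0%), with 352 genes (2.52%) at an unadjusted p below 0.05 and 1 gene called by DESeq2. The ranges of C and H calves overlapped for all 9 genes. Overlap was not counted over all genes tested, so nothing is read from that count.

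The difference between treatments was also asked within each parity. In C calves the log2 fold changes for TRT6 vs. TRT0 ran from −0.08 for MYH10 to 0.20 for ACTB, and in H calves from −0.13 for FLNA to 0.17 for MYH9, with none called (edgeR, lowest adjusted p = 0.9999, 0% of all genes in both). As a description, ACTB stood at 0.48 (SE 0.15) for TRT12_C vs. TRT0_C and at 0.21 (SE 0.17) for TRT12_H vs. TRT0_H, and ACTG1 at 0.38 (SE 0.14) and 0.25 (SE 0.16). ACTN4 stood at 0.33 (SE 0.15) in C and −0.05 (SE 0.17) in H. The interaction of treatment and parity sets TRT12 against TRT0 in its terms, so it is also a description and no p-value of a single gene is printed. In it edgeR (quasi-likelihood F test) called 1 gene of 13943 (0.00717%), which is not one of the 9, and nothing is read from that count.

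Among calves fed at once, none of the 9 genes passed the test of C against H. The log2 fold changes for TRT0_C vs. TRT0_H ran from −0.23 for ACTN4 (SE 0.16) and −0.22 for ACTN1 (SE 0.16) to −0.01 for MYH10, with a median of −0.12 over the 9 genes and of 0.00 over all genes (adjusted p = 0.9999 for each, edgeR). With library totals in place of TMM factors ACTG1 (0.00), MYH9 (0.05) and MYH10 (0.09) turned above 0, and the median of all genes itself moved to 0.10, so no common direction is read from this contrast. In TRT6 the same comparison gave 3 genes above 0 and 6 below, and in TRT12 it gave 7 above and 2 below, again with none called and 0% of all genes called. Lane A held 2 TRT0_H calves and no TRT0_C calf, and lane C held 2 TRT0_C calves and no TRT0_H calf, so lane and parity cannot be told apart fully in TRT0. For ACTN4 the lane C calves had 255 and 253 CPM, and the lane A calves 262 and 391 CPM. In lane B the TRT0_C calves had 428, 383 and 410 CPM and the TRT0_H calves 410 and 448 CPM.

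Ratios within a calf do not depend on the library total. The ratio of ACTG1 to ACTB counts had a geometric mean of 0.453 and stayed between 0.393 and 0.504 over the 27 calves, the narrowest of the 5 ratios (SD of 0.10 on the log2 scale). It had geometric means of 0.461 in TRT0, 0.447 in TRT6 and 0.451 in TRT12. The log2 difference for TRT6 vs. TRT0 was −0.04 (SE 0.05, exact permutation test, p = 0.349, adjusted p = 0.952 over 10 tests), and for C vs. H it was 0.00 (SE 0.04, permutation test, adjusted p = 0.952). Reads that fitted both genes were left out of these counts.

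The ratio of MYH9 to MYH10 counts varied more. It ranged in TRT0 from 6.89 through a median of 8.19 to 10.9, in TRT6 from 7.44 through 10.1 to 12.1, and in TRT12 from 7.80 through 9.91 to 13.9. Its log2 difference for TRT6 vs. TRT0 was 0.24 (SE 0.10, exact permutation test, p = 0.0304), which did not pass after adjustment over the 10 tests (adjusted p = 0.304). Centred within lanes the difference was 0.21, and it was 0.26 in lane A and 0.07 in lane B. The TRT6 and TRT0 calves overlapped. For TRT12 vs. TRT0 the difference was 0.28 (SE 0.12), as a description.

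The other pairs gave no difference that passed. The ratio of ACTN1 to ACTN4 ranged from 0.700 to 1.45 around a geometric mean of 0.999, and that of TLN1 to VCL from 0.856 to 1.55 around 1.17 (adjusted p = 0.952 for TRT6 vs. TRT0 and for C vs. H, permutation tests, exact for the 9 against 9 calves). The nonmuscle actins were also set against the smooth muscle actins ACTA2 and ACTG2, which build the contractile filaments of the muscle layer. That ratio of summed counts ranged from 0.872 through a median of 1.16 to 1.55 in TRT0 (lowest, median, highest), from 0.910 through 1.31 to 2.096 in TRT6, and from 1.14 through 1.57 to 2.02 in TRT12. The log2 difference was 0.14 for TRT6 vs. TRT0 (SE 0.16, exact permutation test, adjusted p = 0.952), and 0.05 without the 6th TRT6 calf, the lowest of the values with 1 calf left out. For TRT12 vs. TRT0 it was 0.37 (SE 0.13), and 0.41 in lane A and 0.30 in lane B, as a description.

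**Figure D3:**
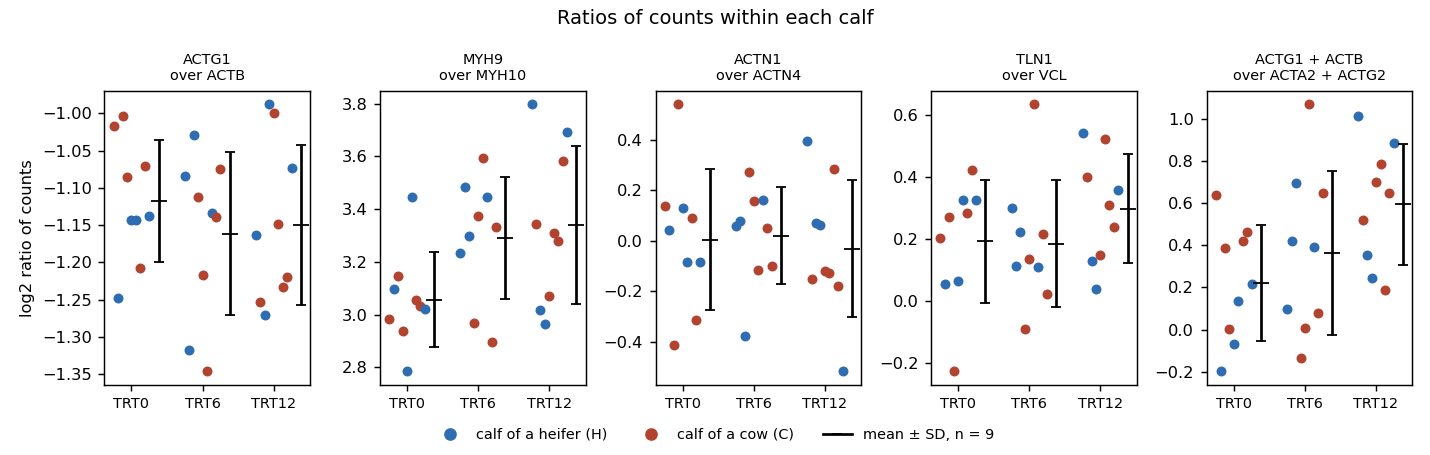
Log2 ratio of counts within each calf (vertical axis) for 5 pairs of genes or sums by treatment, each panel on its own scale, with calves of heifers in blue, calves of cows in red and black bars for the mean ± SD of 9 calves. The ratio of ACTG1 to ACTB spans the smallest range, from 0.393 to 0.504 as a plain ratio, and that of MYH9 to MYH10 is lowest in TRT0, where its median is 8.19.

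The genes did not vary as 1 group across the calves. Over 36 pairs the median Pearson correlation of log2 CPM was 0.46, from −0.21 to 0.92, with 32 pairs above 0 and 19 with an adjusted p of 0.05 or less (permutation test). Calves share treatment, parity and lane, and after the treatment and parity means were taken away the median was 0.46 with 20 such pairs, and after centring within lanes 0.44 with 18. Against all genes, the 95% point of r ran from 0.36 for VCL to 0.62 for ACTN4. For ACTG1 the 5% and 95% points were −0.58 and 0.56, and its counted pairs with TLN1 (0.50) and ACTN1 (0.53) lay between them. The share of all pairs of genes that would pass was not worked out.

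ACTG1, ACTB, MYH9 and ACTN4 had r of 0.58 to 0.92 with each other, a set picked from these same values. The values of ACTN4 with ACTG1 (0.58) and ACTB (0.61) lay under the 95% point of ACTN4 against all genes (0.62). ACTG1 and ACTB had r = 0.92 (Spearman's coefficient = 0.90, permutation p = 1e-05 for both, the smallest the permutations can give, adjusted p = 7.2e-05), r = 0.91 without the 2 calves farthest from the median, 0.89 in lane A and 0.94 in lane B. ACTG1 and MYH9 had r = 0.74 (Spearman = 0.71, adjusted p = 0.00018, permutation test), 0.66 without those 2 calves, 0.64 in lane A and 0.90 in lane B. MYH9 and ACTN4 had r = 0.79 (Spearman = 0.73, adjusted p = 7.2e-05, permutation test), 0.72 without the 2 calves, 0.74 in lane A and 0.79 in lane B. As deviations from the treatment and parity means these were 0.89, 0.67 and 0.81.

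FLNA, TLN1, VCL and ACTN1 formed another set, picked in the same way. FLNA and TLN1 had r = 0.84 (Spearman = 0.86, adjusted p = 7.2e-05, permutation test), 0.83 without the 2 farthest calves, 0.83 in lane A and 0.90 in lane B. FLNA and VCL had r = 0.80 (Spearman = 0.81, adjusted p = 7.2e-05, permutation test), 0.79 without the 2 calves, 0.81 in lane A and 0.90 in lane B. TLN1 and ACTN1 had r = 0.83 (Spearman = 0.84, adjusted p = 7.2e-05, permutation test), with 0.80, 0.79 and 0.86. Between the sets the values were lower for VCL, at 0.04 with ACTG1 and 0.06 with ACTB, while TLN1 and ACTN1 had 0.50 and 0.53 with ACTG1 and 0.58 and 0.66 with ACTB. These are as high as some values within the sets, such as 0.58 for ACTG1 with ACTN4 and 0.52 for TLN1 with VCL, so the sets were not separate. MYH10 stood apart, with −0.13 for ACTG1, −0.21 for ACTB and 0.01 for MYH9, and its closest of the 9 was FLNA at 0.43 (Spearman = 0.43, adjusted p = 0.0459, permutation test). That value fell to 0.17 in lane A and was 0.62 in lane B.

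**Figure D4:**
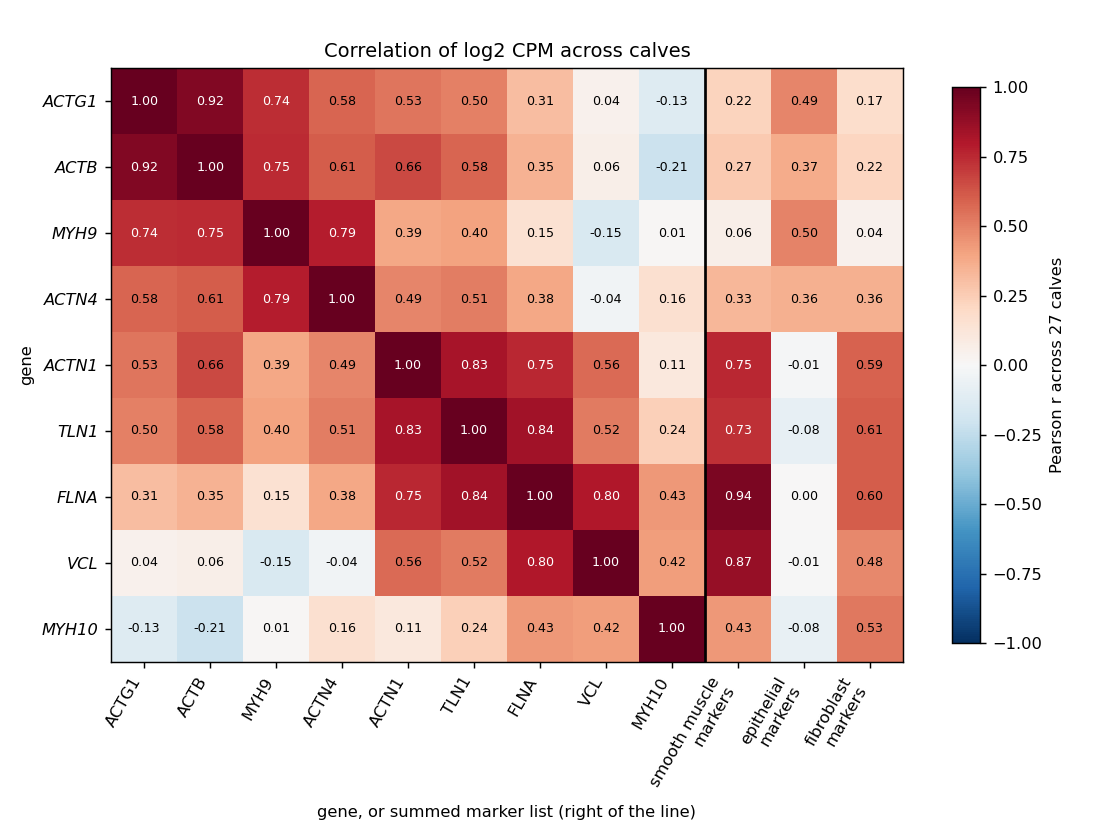
Pearson correlation of log2 CPM across 27 calves between the 9 genes (left of the line) and with the summed level of smooth muscle, epithelial and fibroblast markers (right of the line), coloured from −1 to 1 with the value in each cell. The genes are set in a chosen order, with a block of ACTG1, ACTB, MYH9 and ACTN4 (0.58 to 0.92) and a block of ACTN1, TLN1, FLNA and VCL (0.52 to 0.84). Values between the blocks run from −0.15 (MYH9 with VCL) to 0.66 (ACTB with ACTN1), so the blocks are not separate. FLNA (0.94) and VCL (0.87) lie closest to the smooth muscle sum.

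The genes were then set against the marker sums, over 27 relations adjusted together. FLNA had r = 0.94 with the smooth muscle sum (Spearman = 0.93, adjusted p = 9e-05, permutation test), 0.93 without the 2 farthest calves and 0.94 and 0.95 in lanes A and B, and VCL had r = 0.87 (Spearman = 0.89, adjusted p = 9e-05, permutation test), 0.84 without those calves and 0.88 and 0.94 in the lanes. ACTN1 and TLN1 had 0.75 and 0.73. ACTG1 had r = 0.22 (adjusted p = 0.388, permutation test), ACTB 0.27 and MYH9 0.06 with the same sum, which did not pass. With the epithelial sum ACTG1 had r = 0.49 (Spearman = 0.53, adjusted p = 0.0256, permutation test), 0.43 without the 2 farthest calves, 0.47 in lane A and 0.80 in lane B. That value includes the TRT12 levels that chose the genes, and with the treatment and parity means taken away it was 0.40 and did not pass (adjusted p = 0.0727, permutation test). MYH9 had r = 0.50 (Spearman = 0.47, adjusted p = 0.0256, permutation test), but 0.34 without the 2 farthest calves, 0.14 in lane A, 0.83 in lane B, and 0.41 with those means taken away (adjusted p = 0.0684, permutation test). ACTB (0.37) and ACTN4 (0.36) did not pass with the epithelial sum, and FLNA had 0.00. FLNA and VCL with the smooth muscle sum kept 0.94 and 0.88 with the means taken away (adjusted p = 6.75e-05 for both, permutation test). The fibroblast sum had r = 0.61 with TLN1, 0.60 with FLNA, 0.59 with ACTN1 and 0.48 with VCL (adjusted p from 0.00441 to 0.0266, permutation test). MYH10 had r = 0.53 with it (Spearman = 0.53, adjusted p = 0.014, permutation test), which was 0.31 centred within lanes. Whether the values of the 2 sets differ from each other was not tested.

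**Figure D5:**
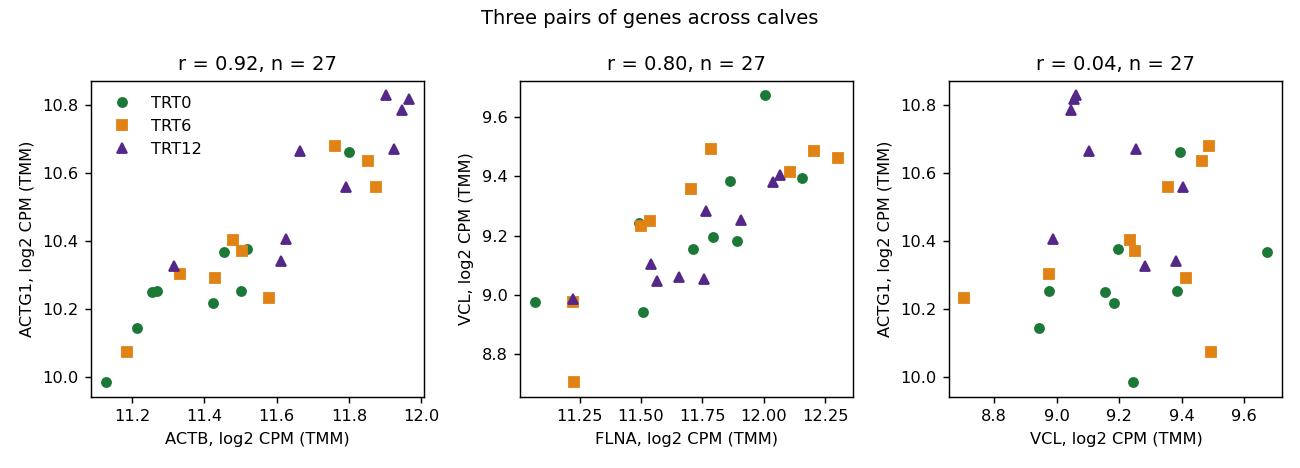
Log2 CPM with TMM factors of 1 gene against another in the 27 calves, with TRT0 as green circles, TRT6 as orange squares and TRT12 as purple triangles. ACTB and ACTG1 fall along a line (r = 0.92), FLNA and VCL along a wider one (r = 0.80), and VCL and ACTG1 show none (r = 0.04).

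Genes outside the 9 with the profile most like ACTG1 were ranked by Pearson r over the 27 calves among 13943 genes, as a description. They were ARHGDIA at 0.90, CFL1, the filament-severing protein cofilin, at 0.88, the unnamed ENSBTAG00000019463 at 0.87, PKM, a pyruvate kinase of glycolysis, at 0.86, and the unnamed ENSBTAG00000030974 at 0.85. ACTB itself, at 0.92, was closer than any of them, and the median over all genes was 0.00. ARHGDIA averaged 223 ± 40.03 CPM and CFL1 497 ± 73.3 CPM. Genes with the highest mean correlation over the 9 were DAG1 (dystroglycan) at 0.63, ZYX (zyxin of focal adhesions) at 0.60, TAGLN (transgelin of smooth muscle) at 0.59, DYNC1H1 (the dynein heavy chain) at 0.59 and LMNA (lamin A) at 0.57.

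The nearest neighbour outside the 9 was also looked up for the other genes, and these names were chosen after their values were seen. FLNA was closest to MYL9, a myosin light chain of smooth muscle, at 0.96, and VCL to MYLK, the kinase that activates smooth muscle myosin, at 0.91. ACTN4 was closest to FLII, a gelsolin-family protein, at 0.91, ACTN1 and TLN1 to MYADM at 0.87 and 0.81, and ACTB to ARHGDIA at 0.93. MYH10 was closest to COL15A1, a collagen of basement membranes, at 0.82, and FLNA, its closest of the 9, ranked 665. Among all genes the closest of the 9 ranked 1 for ACTG1 and TLN1, 2 for ACTB and 5 for ACTN1. It ranked 13 for FLNA, 15 for VCL, 21 for MYH9 and 120 for ACTN4.

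Other genes of actin assembly were counted by role. Among proteins of filament turnover and capping, 12 of 15 had an identifier, and 0 were called in TRT6 vs. TRT0, with 11 above 0 and 1 below and a median log2 fold change of 0.12, beside 0.01 over all genes. CFL1 averaged 455 ± 61.5 CPM in TRT0 and 496 ± 59.7 CPM in TRT6, a log2 fold change of 0.16 (SE 0.10, adjusted p = 0.99998, edgeR). WDR1, which helps cofilin disassemble filaments, stood at 0.09, PFN2 (profilin) at 0.22 and GSN (gelsolin) at −0.05. For C vs. H all 12 were below 0 with a median of −0.06, TPM4 (a tropomyosin) at −0.14 being the lowest, and 0 were called. The list was not refitted with library totals, which moved the median of all genes in that contrast from 0.00 to 0.05.

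Actin nucleation genes, among them subunits of the Arp2/3 complex that starts branched filaments, had 10 of 13 with an identifier. In TRT6 vs. TRT0, 9 were above 0 and 1 below, with a median of 0.08 and 0 called. ARPC2 averaged 220 ± 22.1 CPM in TRT0 and 221 ± 24.7 CPM in TRT6, ARPC4 stood at 0.15 (SE 0.12) and WASF2, an activator of the complex, at 0.07. Of the light chains and regulators of nonmuscle myosin, 11 of 13 had an identifier, 9 were above 0 and 2 below, with a median of 0.08 and 0 called. MYL6, the essential light chain, stood at 0.07 (SE 0.10), and MYH14, the heavy chain of nonmuscle myosin IIC, averaged 316 ± 81.8 CPM in TRT0, 362 ± 56.4 CPM in TRT6 and 431 ± 114 CPM in TRT12, with a log2 fold change of 0.24 (SE 0.15, adjusted p = 0.99998, edgeR) for TRT6 vs. TRT0.

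Other crosslinkers and membrane linkers had 10 of 12 with an identifier, 7 above 0 and 3 below in TRT6 vs. TRT0, with a median of 0.03 and 0 called. SPTBN1 and SPTAN1, the spectrins of the membrane skeleton, stood at −0.04 and 0.03, and PLS1, the fimbrin of microvilli, at 0.26 (SE 0.14, adjusted p = 0.99998, edgeR). Other focal adhesion genes had 12 of 17 with an identifier, 7 above 0 and 5 below, with a median of 0.02 and 0 called. TNS1 (tensin) stood at −0.06, ITGB1 (integrin beta 1) at 0.00, LASP1 at 0.15 and FERMT2 (kindlin) at −0.22 (SE 0.12, adjusted p = 0.99998, edgeR). Of SRF, the transcription factor that responds to free actin, and its cofactors, 1 of 4 had an identifier, MKL2, at −0.06. As a description, the medians for TRT12 vs. TRT0 were 0.22 for turnover and capping, 0.14 for nucleation, 0.11 for myosin regulators, 0.09 for crosslinkers and 0.04 for focal adhesion genes, again with 0 called in each. Among muscle actins 2 of 4 had an identifier, ACTA2 at −0.03 and ACTG2 at 0.06 in TRT6 vs. TRT0 (0 called).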

How the data were processed

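RNA from the colon of 27 calves was made into TruSeq v2 libraries, which do not mark strand, and sequenced as paired-end reads. The authors aligned reads with TopHat2 2.1.1 to the bovine genome (UMD 3.1), handled alignments with SAMtools 1.4 and counted reads per Ensembl gene with HTSeq, whose strand setting is not given in the sources used here. The deposited table holds raw counts, 1 column per calf. Names for 4046 identifiers came from the tables of the study, and genes without a name there were not looked up. No gene lengths or sequences of this build were used here.

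Genes with at least 1 CPM in at least 5 of 9 calves of each treatment were kept (13943 of 24616). Counts were fitted with edgeR 4.0.16 (R 4.3.3), TMM factors and the quasi-likelihood test, with terms for treatment and parity, and as 6 group means for comparisons within groups and the interaction. Standard errors were derived from the fold change and its F value, and 95% intervals are a normal approximation. P-values were adjusted over all genes by the method of Benjamini and Hochberg, and a gene was called at an adjusted p of 0.10 and a fold change of 1.2. Treatment came from the labels, parity from the sample table of the study, and lane from the library names. Log2 CPM used a prior count of 1. Two-sided permutation tests were exact for 9 against 9 calves and drew 100000 resamples otherwise. The scripts were tested on simulated data.

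The 9 genes, the other lists and the tests were chosen with earlier results of these data known. Genes named from a list were the 3 with the highest mean CPM, any called gene, and those with the largest log2 fold change in TRT6 vs. TRT0 and C vs. H. A gene that this rule would name is not reported here. Genes named for likeness were the 5 nearest to ACTG1 and the 5 nearest to the 9 genes on average. Alternatives were library totals, DESeq2 1.42.0, other filters, no parity term, lane as a term and each calf left out in turn, and lane A or lane B alone and marker correlations without the treatment and parity means were added after the data were seen. Counts of each calf limit the precision, and counting error covers only the sampling of reads.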

Additional observations from a re-analysis of the deposited data

Results flagged for a closer look

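Of 81 groups of 4 to 9 calves examined over the 9 genes, 2 held a calf whose gap to the nearest other exceeded the 95% critical value of Dixon, where chance gives about 5%. The level of ACTG1 in the lowest calf of TRT6_C was 1026 CPM, with the nearest of the 5 calves at 1339 CPM. The level of FLNA in the highest calf of TRT12_H was 4539 CPM, with the nearest of the 4 calves at 3195 CPM.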

How the results depend on the processing

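edgeR called none of the 9 genes in any contrast under any alternative run. DESeq2 called 2 of them, ACTG1 and ACTB, in TRT12 vs. TRT0, where it called 51 of all genes (0.366%). It called none of the 9 in the other contrasts. The rule used TRT12 vs. TRT0, so nothing is read from these calls. Small log2 fold changes turned sign, and the cause was not tested. With library totals these were, for C vs. H, ACTN1 (0.00359), FLNA (0.0221), MYH9 (0.0344), TLN1 (0.0207) and VCL (0.00448), and for TRT6 vs. TRT0, ACTN4 (−0.0189), FLNA (−0.0125), TLN1 (−0.00961) and VCL (−0.00208). With lane A calves alone they were, for C vs. H, ACTB (0.0583), ACTG1 (0.00315), ACTN1 (0.142), ACTN4 (0.170), FLNA (0.0896), MYH9 (0.0818) and TLN1 (0.0635), and for TRT6 vs. TRT0, ACTN4 (−0.0902) and TLN1 (−0.0205). With lane B calves alone MYH10 turned in C vs. H (−0.0288) and in TRT6 vs. TRT0 (0.0341). Among ratios, ACTG1 over ACTB turned in C vs. H from summed counts (−0.0153) and centred within lanes (−7.21e-05), ACTN1 over ACTN4 turned in TRT6 vs. TRT0 centred within lanes (−0.0175), and TLN1 over VCL turned in TRT6 vs. TRT0 from summed counts (0.0380) and centred within lanes (0.0151). With each calf left out in turn, TRT6 vs. TRT0 ranged from −0.00900 to 0.0905 for ACTN1, −0.0322 to 0.0745 for ACTN4, −0.0519 to 0.0950 for FLNA, −0.0230 to 0.0626 for TLN1 and −0.00353 to 0.0999 for VCL. C vs. H ranged from −0.0793 to 0.0215 for FLNA, −0.0485 to 0.0131 for MYH9 and −0.0600 to 0.00011 for TLN1. The ratios ranged in C vs. H from −0.0133 to 0.0170 for ACTG1 over ACTB, −0.0396 to 0.0429 for ACTN1 over ACTN4 and −0.0109 to 0.0505 for TLN1 over VCL, and in TRT6 vs. TRT0 from −0.0369 to 0.0818 for ACTN1 over ACTN4 and −0.0631 to 0.0275 for TLN1 over VCL. As a description of the value that chose the genes, the log2 fold change of ACTG1 in TRT12 vs. TRT0 ran from 0.29 to 0.38 with each calf left out. That range does not remove the choice. Each calf was assigned to a single treatment, so the design holds no pairs. The labels carry no replicate numbers, and the numbers used here only name calves.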

Other observations

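Markers of the connective tissue of the colon wall did not pass the test in calves fed at 6 h. All 7 fibroblast and mesenchymal markers had a log2 fold change below 0 for TRT6 vs. TRT0, with a median of −0.28 beside 0.01 over all genes tested, and 0 were called by edgeR. DCN (decorin, which binds collagen fibrils) averaged 229 ± 39.2 CPM in TRT0 and 172 ± 36.3 CPM in TRT6 (SD, n = 9 each), a log2 fold change of −0.40 (SE 0.13, adjusted p = 0.99998, edgeR quasi-likelihood test). The fibrillar collagens COL3A1, COL1A1 and COL1A2 stood at −0.23, −0.28 and −0.30. The summed level of the 7 markers had medians of 10900 CPM in TRT0, 9531 CPM in TRT6 and 10197 CPM in TRT12, and 9531 CPM in lane A against 12943 CPM in lane B, and the part of the lane was not tested.

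Of the remaining marker lists, 3 of 4 endothelial, 2 of 5 leukocyte and 3 of 6 enteric neuron and glia markers had an identifier, and 0 of 2 erythrocyte markers did. None was called in TRT6 vs. TRT0, where the list medians were 0.06, 0.01 and 0.03. Their summed levels ranged over the 27 calves from 240 to 445 CPM, from 437 to 1346 CPM and from 10.1 to 24.7 CPM.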
